A study of Mus musculus with 16 samples.

Results

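The comparison described here is between macrophages of miR-155 KO mice and macrophages of WT mice at 12 h of LPS. It rests on the 2 arrays titled KO_12 and the 2 titled WT_12, of 16 arrays in all, with KO replicate 1 set against WT replicate 1 and KO replicate 2 against WT replicate 2. In both groups the cells came from bone marrow of male C57BL/6Jax mice. The marrow had grown for 9 days with M-CSF, a cytokine that turns progenitors into macrophages, at 10 ng/mL, and the adherent cells were then given 100 ng/mL LPS, a bacterial cell wall component. The labels name the genotypes only as WT and miR-155 KO, with no allele, and do not say whether the 2 replicates came from separate mice or cultures, so p-values measure the spread between these samples, which may be technical. The rest of the series holds the same genotypes at 0, 6 and 24 h, again with 2 arrays a group. Of 17650 genes tested, 8090 met the rule for genes to be reported, which asks for the same sign in both pairs and a signal well above background on both arrays of the brighter group; 4010 of them were higher in KO and 4080 lower.

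MicroRNAs are short RNAs that guide Argonaute proteins to messenger RNAs. Pairing between the seed, the bases near the 5' end of the microRNA, and the 3' untranslated region of a message leads to less translation and usually to decay of the message. miR-155 is cut from a transcript that LPS induces strongly in macrophages, and its reported targets include brakes on inflammatory signalling such as Inpp5d (SHIP1) and Socs1.

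The microRNA that the knockout lacks is shown first, because its seed defines which messages could pair with it. Its mature sequence (RefSeq, GRCm38.p6, chr16:84714143-84714165, plus strand, 23 bases) has the seed, bases 2 to 8, in capitals. Below it stand 30 bases from array probes of 3 reported target genes, in the sense of the message, where the 7 bases that pair with the seed, AGCATTA, are in capitals. These 3 are examples, since not every probe of the reported targets was searched for this display. In all 3 the match is followed by A. The Cebpb probe is the one whose values are used; those of Map3k10 and Meis1 are further probes of their genes. The windows were taken from the probe sequences in the files, at mm9 probe positions chr2:167515847-167515905 for Cebpb, chr7:28441408-28441467 for Map3k10 and chr11:18781206-18781265 for Meis1.
mmu-miR-155-5p: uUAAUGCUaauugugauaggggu
Cebpb: tttccgtttcgAGCATTAaagtgaagacat
Map3k10: tggcacaaggcgcAGCATTAaaggtaagcc
Meis1: aggatttttagAGCATTAaaataactatca

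A level is the log2 spot intensity minus the 75th percentile of its array, so that 0 is the brightness at that percentile and 1 unit is 2-fold, and a difference is KO minus WT, with its standard error from limma. The array carries 0 probes for Mir155 or its host transcript, so the deletion itself was not checked on these arrays. The 75th percentile lay at 332.7 and 523.4 scanner units on the KO arrays and at 406.1 and 441.3 on the WT arrays, and between 56% and 65.2% of probes were well above background. All 31 macrophage identity genes tested, Csf1r, Cd68 and Adgre1 among them, were well above background on all 4 arrays. Their summed linear level, in multiples of the 75th percentile, was 6630 and 4440 in KO and 6650 and 4540 in WT. The same sum over 6 T and NK cell markers was at most 1.58 on any of the 4 arrays, over 3 erythroid markers at most 0.269, and over 12 neutrophil markers 23.9 and 7.12 in KO and 36.5 and 6.57 in WT. Other marker sums were larger than those of the T and NK cell and erythroid markers. Over 6 B cell markers the sum was 203 and 201 in KO and 178 and 181 in WT. Over 3 megakaryocyte markers it was 129 and 123 against 96.2 and 145. Over 3 mast cell and basophil markers it was 24.8 and 59.3 against 28.2 and 66.5, and over 9 dendritic markers 14.6 and 15.1 against 18.9 and 14.5. In bulk RNA fewer cells of a type and less RNA per cell cannot be told apart. Each replicate number is also 1 scan session, and in each session the KO and the WT array of 12 h were on different slides, so no slide held both groups. Array number limits the precision: the median standard error of a difference was 0.304, and 9879 genes (56.0%) had a 95% interval that lay within 2-fold either way.

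At 12 h, 3 of 17650 genes (0.0170%) passed an adjusted p of 0.05 in limma with Benjamini-Hochberg adjustment: Mrpl39 was lower in KO, and Rptoros and Sod3 were higher (0.0113%). At an unadjusted p below 0.05 there were 651 genes (3.69%), 382 higher (2.16%) and 269 lower (1.52%). The same limma fit called 1 gene at 0 h, 2 at 6 h (0.0113%) and 0 at 24 h, where 990 genes had an unadjusted p below 0.05. The differences of the 2 pairs had the same sign for 9165 genes (51.9%), and across all genes they correlated at r = 0.0399, or 0.0659 over the 14492 genes well above background on all 4 arrays. Genes are not independent replicates, so these coefficients only describe the 4 libraries. Among genes that met the rule, 2516 (14.3% of all tested) had both arrays of 1 genotype above both of the other. Separation of the groups in single genes below is to be read beside that share. In 90 genes (0.510%; 64 higher, 26 lower) the difference was at least 2-fold in each pair, and for 26 of those the dimmer group was well above background on neither array.

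**Figure D1:**
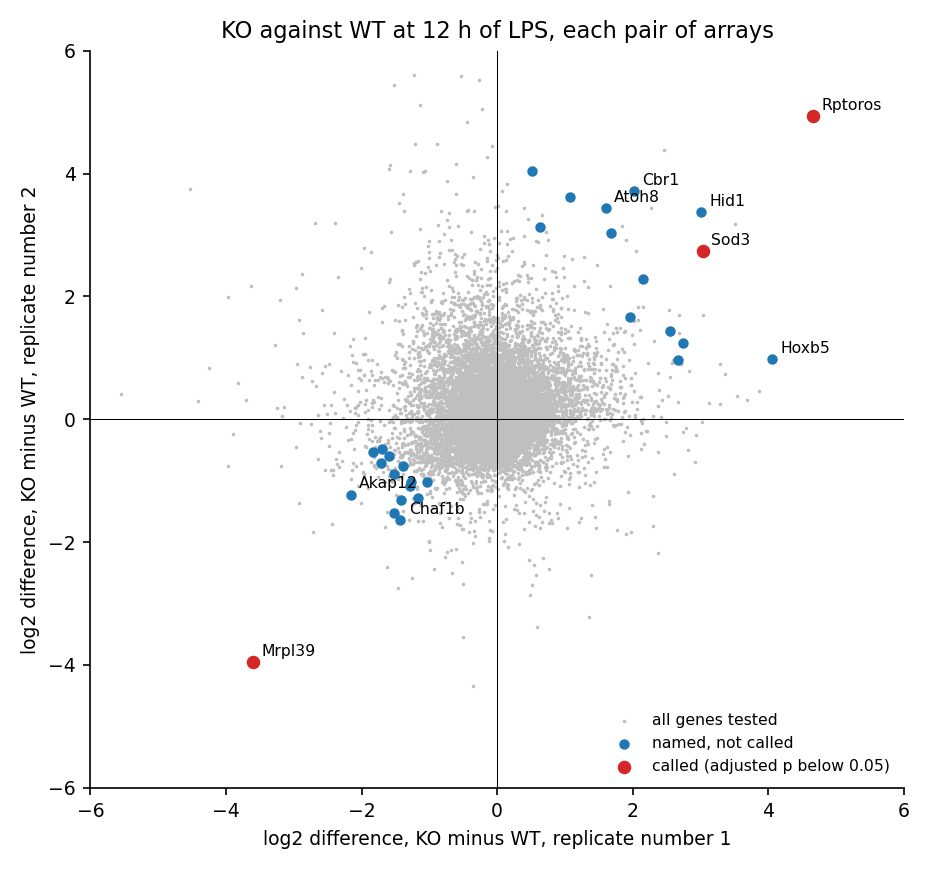
Log2 difference between KO and WT at 12 h for every gene tested, replicate pair 1 on the x axis and pair 2 on the y axis, with the 3 called genes in red and the other genes named by rule in blue; 2 genes (Hrh2 and NAP047128-1) lie outside the axes. The cloud has no slant, with r = 0.0399, and Mrpl39 at lower left and Rptoros at upper right stand far from 0 in both pairs.

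The largest called difference on a well measured probe was that of Mrpl39, which encodes a protein of the large subunit of the mitochondrial ribosome. Its level was -1.34 and -1.71 on the KO arrays and 2.26 and 2.24 on the WT arrays, well above background on all 4. Both KO arrays were thus far below both WT arrays, while replicates differed by 0.36 or less on the log2 scale. The difference was -3.78 ± 0.25 (SE, n = 2 arrays a group; 95% interval -4.34 to -3.21; limma adjusted p = 0.00095), which is 13.7-fold (interval 9.28 to 20.2). The scanned spot means, before any scaling, were 147.2 and 187.6 units in KO and 1805 and 1937 in WT, over local backgrounds of 17 to 21.

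Mrpl39 is measured by 1 probe, on chromosome 16. The file places it at chr16:84718622-84724086 (mm9), a span far longer than the probe, so the probe bridges an intron. It is shown because the finding rests on this one sequence.
Mrpl39 probe: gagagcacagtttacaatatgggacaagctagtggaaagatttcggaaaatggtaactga

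The level of Mrpl39 before LPS was 2.28 and 2.20 in KO and 2.24 and 2.33 in WT, a difference of -0.04. At 6 h the KO arrays were at 0.42 and -0.28 and the WT arrays at 2.55 and 1.84 (difference -2.13, limma adjusted p = 0.0542). At 24 h they were at 1.16 and 0.88 against 3.02 and 3.19 (-2.09, limma adjusted p = 0.0892). The genotypes therefore overlapped at 0 h and were apart on every array of the later times, with the widest separation at 12 h. The difference at 12 h minus the mean of the differences at the other 3 times was -2.36 ± 0.29 (limma adjusted p = 0.115), which misses the threshold.

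In the RefSeq gene order Mrpl39 is the first gene after Mir155, so the genes around it were read as a list. Of 55 listed chromosome 16 neighbours 48 were tested, all well above background on all 4 arrays. Mrpl39 was the 1 called member, 26 differences were above 0 and 22 below, and the median was 0.02, equal to the 0.02 over all genes. Within 15 Mb on each side of the Mrpl39 probe, 7 of 118 genes (5.93%) differed by more than 1 log2 unit, against 3.72% of all genes tested.

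A further wide difference among these neighbours was that of Cbr1, a carbonyl reductase that detoxifies reactive carbonyls, whose probe lies 8.89 Mb from that of Mrpl39. Its level was 2.45 and 1.98 in KO and 0.43 and -1.73 in WT. The KO arrays were both higher, and the 2 WT arrays were themselves 2.16 apart, so that the difference of 2.87 ± 0.53 did not pass (limma adjusted p = 0.425). With WT replicate 1, the brighter WT array, left out, the difference widened to 3.86, with a single WT array left. Within the pairs it was 2.02 and 3.71. At 0, 6 and 24 h, on separate arrays, the difference was 2.48, 2.54 and 2.85. Its neighbour and paralog Cbr3 was at 3.84 and 1.77 in KO and 2.83 and 1.31 in WT (0.74 ± 0.40), with overlapping groups.

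Chaf1b, a subunit of the chromatin assembly factor that loads histones behind the replication fork, lies 9.19 Mb from the Mrpl39 probe. It was at -0.70 and -0.40 in KO and at 0.73 and 1.25 in WT. The groups were apart, and the difference was -1.54 ± 0.27 (limma adjusted p = 0.31), which is not called. The differences at 0, 6 and 24 h were -0.19, -0.72 and -1.74.

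**Figure D2:**
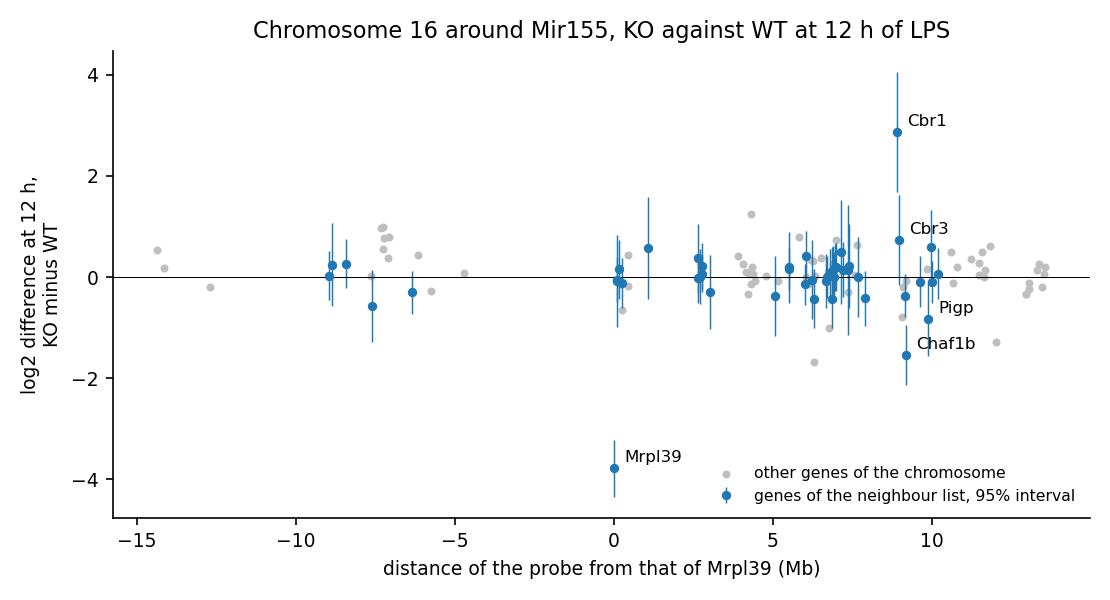
Log2 difference between KO and WT at 12 h for genes of chromosome 16, by the distance of their probe from that of Mrpl39 in Mb; blue points are the neighbour list with 95% intervals, grey points the other genes. Mrpl39 at -3.78 and Cbr1 at 2.87 stand outside a band centred near 0.

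Rptoros, a long noncoding RNA transcribed opposite Rptor, had the largest called difference upward. Its level was -2.75 and -1.57 in KO and -7.41 and -6.50 in WT. Both KO arrays were well above background and neither WT array was, so WT has only a bound there. On the deposited background-subtracted signals KO was at least 13.1-fold higher. For that bound the WT value on an array was raised, where lower, to the dimmest signal that counted as well above background there. The fitted difference was 4.80 ± 0.47 (limma adjusted p = 0.0109). The spots were dim in WT: their means were 70.5 and 164.3 scanner units in KO and 27.2 and 32.1 in WT, over local backgrounds of 16 to 23. With another background correction, given below, the difference was far smaller, so the bound holds for the deposited signals only.

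The fitted difference in Rptoros was also above 0 at the other times, at 4.65, 4.76 and 3.95 at 0, 6 and 24 h (limma adjusted p = 0.0433, 0.0352 and 0.0892). The contrast of 12 h with those times was 0.35. As the WT signal was not well above background at 12 h, the size of that contrast is no measure of a change with time. Without the replicate block the 12 h difference was not called (limma adjusted p = 0.323), and leaving out single 12 h arrays gave adjusted p from 0.08 to 0.163. Its 1 probe lies at chr11:119682498-119682557 (mm9), and is printed because the finding rests on it.
Rptoros probe: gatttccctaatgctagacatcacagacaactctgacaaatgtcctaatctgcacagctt

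Rptor itself, the mTORC1 scaffold, measured by a probe 78.1 kb away, differed by 0.12 ± 0.32. Baiap2, an adaptor that links small GTPases to actin, was 177.5 kb away. It was at -0.80 and -1.50 in KO and at 0.62 and -0.20 in WT, groups that did not overlap (-1.36 ± 0.23, limma adjusted p = 0.301).

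Sod3, the extracellular superoxide dismutase, was at -5.17 and -5.11 in KO and at -8.21 and -7.85 in WT. The KO arrays were higher and well above background, while neither WT array was. On the deposited background-subtracted signals KO was thus at least 1.65-fold higher. With another background correction, given below, the difference was far smaller, so this bound too holds for the deposited signals only. The fitted difference was 2.89 ± 0.25 (limma adjusted p = 0.00475). The spots were dim: their means were 37.3 and 47.5 scanner units in KO and 27.2 and 30.8 in WT, over local backgrounds of 15 to 24. With levels below the lowest well measured signal raised to it, the difference was 0.72 (limma adjusted p = 1). At 0, 6 and 24 h the difference was 0.16, -1.42 and -0.30.

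**Figure D3:**
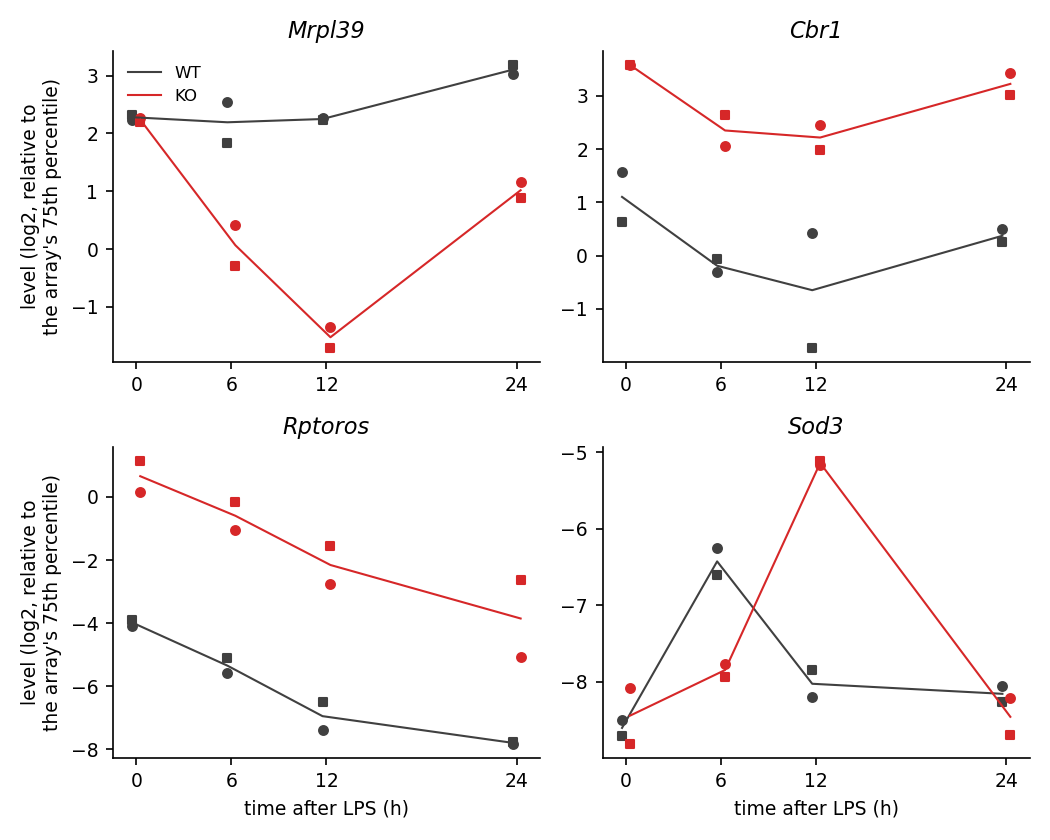
Levels of Mrpl39, Cbr1, Rptoros and Sod3 (log2, relative to the array's 75th percentile) against hours of LPS, with KO in red and WT in grey, circles for replicate 1, squares for replicate 2 and lines through the means of 2 arrays. Mrpl39 starts together at 0 h and parts later, and Cbr1 and Rptoros are apart at all 4 times. Sod3 is apart with KO above WT at 12 h and with KO below WT at 6 h.

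Since 2 genes passed upward and 1 downward, the other places among the 15 largest each way were filled with genes of unadjusted p below 0.01, none of which is called. The 13 others on the higher side ranged from 1.81 (Myom3, a muscle structural protein) to 3.19 (Hid1, a trafficking protein). For 6 of the 15 WT was well above background on neither array, and for 6 more on 1 array; Cbr1, Hoxb5 and Peli3 were measured on all 4. Peli3, an E3 ligase of Toll-like receptor signalling, was at -0.54 and -0.85 in KO and -3.21 and -1.83 in WT. Its difference was 1.82 ± 0.49, and at 6 h it was -1.40.

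Atoh8, a bHLH transcription factor, was at -3.84 and -3.76 in KO and -5.45 and -7.19 in WT (2.52 ± 0.41, limma adjusted p = 0.301). Btbd11 was at -3.19 and -4.88 against -5.93 and -6.13 (1.99 ± 0.34), and differed by 2.74 at 24 h. In both genes each KO array exceeded each WT array, and WT was well above background on 1 array of 2. At 0, 6 and 24 h, on arrays not used at 12 h, 11, 3 and 9 of the 15 genes had a difference above 0; of all 3033 higher genes that had an ordinary symbol and met the rule, 1628, 1646 and 2118 did.

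On the lower side 14 of the 15 genes were well above background on all 4 arrays. Il12rb1, the receptor chain shared by IL-12 and IL-23, was at 0.22 and 1.54 in KO and 1.74 and 3.06 in WT. Each KO array was below each WT array, by 1.52 in both pairs, and the difference was -1.52 ± 0.34 (limma adjusted p = 0.785). It was 0.10 at 0 h, -0.75 at 6 h and -2.12 at 24 h.

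Akap12, a scaffold for protein kinase A, was at -1.93 and 0.20 in KO and 0.23 and 1.42 in WT (-1.69 ± 0.53). None of the genes that follow is called either. Mxd1, a Max partner that opposes Myc, differed by -1.21 ± 0.37, Cdkn2d, a Cdk4 and Cdk6 inhibitor, by -1.15 ± 0.36, and Rgs1, which shortens signals of G protein coupled receptors, by -1.10 ± 0.34. Rnf144b, an E3 ubiquitin ligase, was at -3.20 and -3.05 in KO and -1.48 and -2.35 in WT. KO and WT arrays overlapped for Mxd1 and Rgs1 and not for Akap12, Cdkn2d or Rnf144b. At 0, 6 and 24 h 5, 13 and 15 of the 15 had a difference below 0; of all 3496 lower genes that had an ordinary symbol and met the rule, 1468, 2136 and 2696 did.

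In the contrast of 12 h with the mean of the other times, 1 of 17650 genes (0.00567%) passed, Sod3, and 678 (3.84%) had an unadjusted p below 0.05. As the WT signal of Sod3 was not well above background at 12 h, the size of its contrast is no measure of a change with time. Noxa1, an activator subunit of NADPH oxidase, stood among its smallest p-values. At 12 h it was well above background on 1 KO array and on neither WT array, so it does not meet the rule and no difference is read from it.

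Reported targets of miR-155 were taken from the list of 48 genes, of which 46 were tested and 41 were well above background on all 4 arrays. None was called (0.0170% of all genes), and 2 of the 46 had an unadjusted p below 0.05 (3.69% of all genes). The median difference was 0.17, from 0.10 in pair 1 and 0.13 in pair 2, and 31 of 46 differences were above 0; over all genes the median was 0.02 and 9380 of 17650 were above 0. At 0, 6 and 24 h the median of the list was 0.10, 0.18 and 0.16, against 0.01, -0.02 and 0.00 over all genes. Over the 12 other settings it lay between 0.05 and 0.23, and without WT replicate 1 it was 0.10. Its lowest value came with scaling to the array's median, which moved the median of all genes by 0.12, to -0.10.

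Among the signalling brakes, Inpp5d, the phosphatase SHIP1 that removes the lipid signal of PI3 kinase, was at 4.68 and 4.16 in KO and 4.22 and 3.82 in WT. KO was higher in each pair but the groups overlapped, and the difference was 0.40 ± 0.31 (95% interval -0.29 to 1.09). Socs1, an inhibitor of cytokine receptor kinases, was at 5.30 and 5.53 in KO and 5.24 and 5.67 in WT. Its difference of -0.04 ± 0.23 had an interval of -0.56 to 0.47, which leaves out a 2-fold change.

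Among the transcriptional regulators, Cebpb, a driver of inflammatory gene expression whose measured probe carries the seed match printed above, was at 6.80 and 6.00 in KO and 6.70 and 5.59 in WT (0.25 ± 0.23). Spi1 (PU.1), the lineage factor of macrophages, differed by 0.20 ± 0.31. Jarid2, a Polycomb partner, differed by 0.34 ± 0.28, and Bach1, a repressor of heme and oxidative stress genes, by -0.29 ± 0.33. The intervals of all 4 include 0. Map3k10, a kinase of the JNK pathway, was at -0.65 and -1.09 in KO and -0.50 and -0.47 in WT (-0.39 ± 0.25), lower in KO on both arrays. The receptor Csf1r differed by 0.36 ± 0.26 and the arginase Arg2 by 0.68 ± 1.38. Msh6, a DNA repair protein, differed by 0.08 ± 0.21.

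The 2 targets with an unadjusted p below 0.05, picked out after their values were seen, were Tspan14 and Meis1. Tspan14, a tetraspanin that helps ADAM10 mature, was at 4.34 and 3.81 in KO and 3.47 and 3.15 in WT, with each KO array above each WT array (0.76 ± 0.21, unadjusted p = 0.00567 in limma). Meis1, a homeobox transcription factor, was well above background on 1 array of 2 in each genotype, so it does not meet the rule and no difference is read from it. For 28 of the 46 targets the 95% interval lay within 2-fold either way.

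The seed match was also looked for in the array probes themselves, on the strand of the message. The letters AGCATTA stood in the measured probe of 68 of 17650 genes (0.385%), and the reverse complement TAATGCT in another 68 (0.385%), motifs that can overlap each other by 2 letters. Of the 68 with AGCATTA, 46 differed upward and 22 downward, and none was called (0.0170% of all genes). Their median was 0.14, from 0.14 and 0.10 in the pairs. An unadjusted p below 0.05 was found for 2 of the 68, and for 3.69% of all genes. Genes without it had a median of 0.02. Those with the reverse complement had a median of 0.06, with 1 called, Rptoros, whose printed probe holds these letters, and 5 at an unadjusted p below 0.05. The median with the match was -0.01, -0.01 and 0.16 at 0, 6 and 24 h. A probe covers a small stretch of a message, so most sites of a gene are outside these windows.

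**Figure D4:**
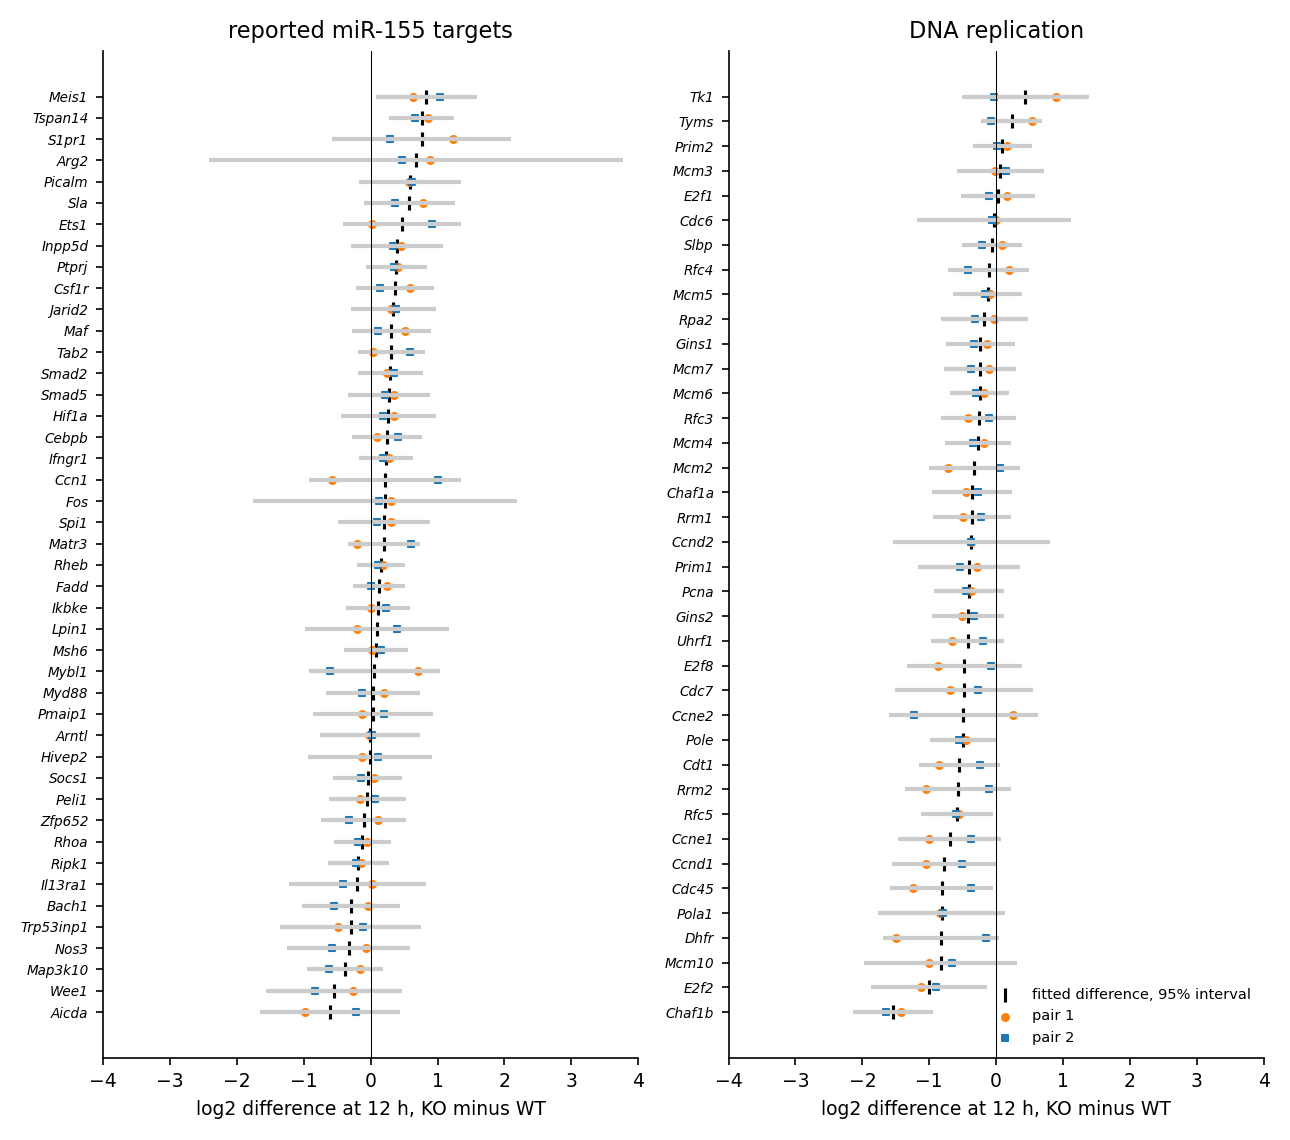
Log2 difference between KO and WT at 12 h for 44 of the 46 reported miR-155 targets tested (left) and each DNA replication gene tested (right), with the fitted value and 95% interval in black and grey and pair 1 and pair 2 in orange and blue. Targets straddle 0, with a median of 0.17 over all 46, while 33 of 38 replication genes lie below 0 with Chaf1b lowest.

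Genes of DNA replication had the lowest median among the 25 pathway lists. All 38 were tested, 35 of them well above background on all 4 arrays; 33 differences were below 0, and 28 were below 0 in both pairs. None was called (0.0170% of all genes), and 6 had an unadjusted p below 0.05, all on the lower side (background 1.52%). The median was -0.39, from -0.43 and -0.31 in the pairs, against 0.02 over all genes. It was -0.05, -0.08 and 0.12 at 0, 6 and 24 h, and over the 12 other settings at 12 h it lay between -0.51 and -0.24.

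The 6, named after their values were seen, were Chaf1b, E2f2, Cdc45, Ccnd1, Rfc5 and Pole. E2f2, an activator of S phase genes, was at -3.46 and -3.01 in KO and -2.34 and -2.11 in WT (-1.01 ± 0.39). Ccnd1, the cyclin that partners Cdk4 and Cdk6 in G1, was at 2.84 and 3.37 in KO and 3.89 and 3.88 in WT (-0.78 ± 0.35). Rfc5, a subunit of the clamp loader, was at 1.01 and 1.45 against 1.56 and 2.06 (-0.58 ± 0.24). In these 3 each KO array was below each WT array, while 14.3% of all genes tested met the rule with groups apart in either direction. Cdc45 of the replicative helicase, well above background on 1 of 2 KO arrays (-0.81 ± 0.34), and Pole, the leading strand polymerase (-0.50 ± 0.22), overlapped between groups. Mitosis genes had a median of -0.26 (23 of 35 below 0), but the median turned to 0.08 with slide as the block and was -0.11 without KO replicate 1. Among them Aurkb, a spindle checkpoint kinase, was named after its values were seen. It was well above background on 1 of 2 KO arrays and differed by -0.77 ± 0.25.

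None of the inflammatory cytokines was called (0.0170% of all genes). Tnf was at 6.83 and 6.62 in KO and 6.30 and 6.44 in WT. Although each KO array was higher, the difference was 0.35 ± 1.23. The SE pools the spread of all 8 groups, and at 0 h Tnf was at 0.22 and 4.72 in KO and 0.16 and 4.57 in WT. Il6 was at 4.94 and 3.94 against 3.66 and 3.80 (0.71 ± 0.78) and Il1b at 8.66 and 7.25 against 7.63 and 6.43 (0.92 ± 0.92). Il12b, the p40 subunit, differed by 0.91 ± 0.57. The anti-inflammatory Il10 was at -0.12 and 2.33 in KO and 0.61 and 3.09 in WT (-0.74 ± 0.76), with sessions further apart than genotypes. Ifnb1 (-0.28 ± 0.49), Nos2, which makes nitric oxide (-0.64 ± 0.79), and Arg1, well above background on 1 array of 2 in each genotype (-0.07 ± 0.99), did not pass either. All 8 had an adjusted p of 1 in limma. Over the 28 cytokines tested the median was -0.04, with 13 above 0, and it lay between -0.16 and 0.57 over the other settings and between -0.15 and 0.16 with single 12 h arrays left out. The 1 of 28 cytokines with an unadjusted p below 0.05 (3.69% of all genes), named after its values were seen, was Il12a, the p35 subunit of IL-12. It was at -0.71 and -3.54 in KO and -2.14 and -4.62 in WT, so KO was higher in each pair while the sessions were further apart than the genotypes (1.25 ± 0.50, unadjusted p = 0.0312 in limma).

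Of 21 chemokines tested none was called (0.0170% of all genes). Below 0 were 14 differences, against 8270 of 17650 over all genes, and the median was -0.29. It was -0.41 to -0.13 over the other settings, and -0.05 without WT replicate 1. The neutrophil attractants Cxcl1, Cxcl2 and Cxcl3, chosen after their values were seen, had differences of 1.68 ± 2.38, 1.10 ± 2.20 and 1.81 ± 1.88. Ccl24 was at 0.65 and 0.92 in KO and 1.57 and 1.68 in WT (-0.84 ± 0.32), and Ccl17 at -1.52 and -1.67 against -1.09 and -0.46 (-0.81 ± 0.33). These 2, ligands of receptors on eosinophils and on T helper cells, were named after their values were seen. They were the members of the 21 with an unadjusted p below 0.05 (3.69% of all genes), and for both the groups did not overlap. At 24 h the list's median was -0.50.

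Interferon-stimulated genes had a median of -0.20 over 55 members, 45 of them below 0 and 32 below 0 in both pairs. None had an unadjusted p below 0.05 in limma (3.69% of all genes). The median was 0.25 at 0 h, 0.01 at 6 h and -0.44 at 24 h. With slide as the block the 12 h median turned to 0.47, so its direction depends on how slides are treated, and it was -0.03 without KO replicate 1, -0.05 without WT replicate 2, -0.33 without KO replicate 2 and -0.34 without WT replicate 1. Lysosome genes were below 0 in 28 of 30 members, with a median of -0.16 that was 0.01 with slide as the block. The 39 genes of the mitochondrial ribosome had a median of 0.12, from 0.195 and -0.0134 in the pairs. This median lay between -0.00 and 0.12 over the 12 other settings and between -0.04 and 0.17 with single 12 h arrays left out. Apart from Mrpl39 the lowest difference of these genes was that of Mrpl27, -0.28, and the 95% interval lay within 2-fold for 36 of the 39. For oxidative phosphorylation it did so for all 34, with a median of -0.01.

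**Figure D5:**
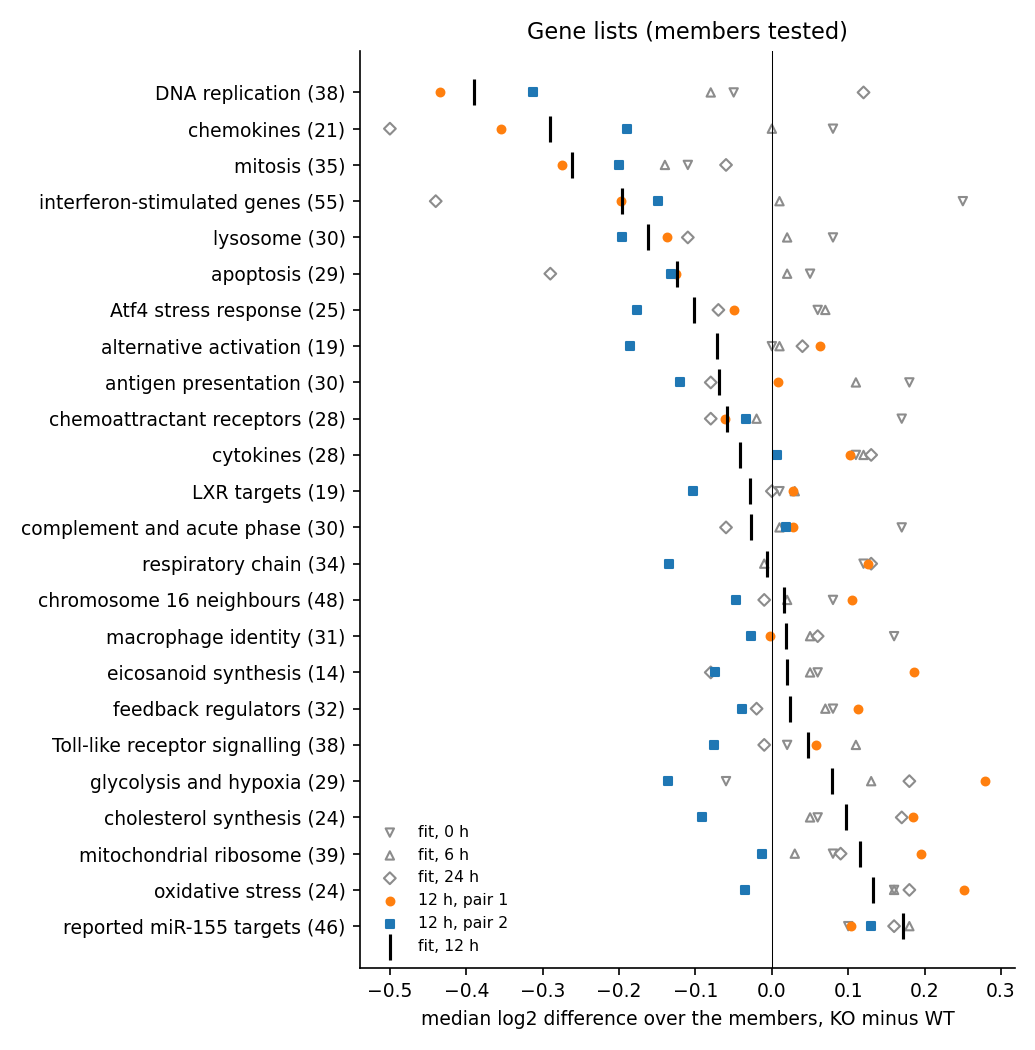
Median log2 difference between KO and WT over the tested members of gene lists, with the 12 h fit as a black bar, the 2 pairs of 12 h in orange and blue and the other times as open grey symbols; the number of members is in parentheses. Among the lists drawn, which leave out the markers of other cell types, DNA replication has the lowest median at 12 h, -0.39, against -0.08 to 0.12 at the other times.

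Among markers of other cell types none was called (0.0170% of all genes). Over 9 stromal markers the median difference was -0.48 (between -0.59 and 0.23 over the other settings, -0.77 without KO replicate 2 and -0.13 without KO replicate 1), with summed levels of 212 and 193 in KO and 230 and 194 in WT. Within that list Pdgfrb, a receptor of pericytes and fibroblasts named after its values were seen, went the other way. It was at 0.11 and -1.58 in KO and -1.09 and -2.62 in WT (1.12 ± 0.28). Over 10 osteoclast markers the sums were 45.9 and 34.4 in KO and 31.3 and 21.5 in WT, and none of the members was called. Their median difference was -0.11, with 6 of 10 below 0, so the sums and the median differ in direction. Over 7 endothelial markers the sums were 3.86 and 4.85 in KO and 7.71 and 7.41 in WT, with KO lower in each pair and a median of -0.14 that ran from -0.65 to 0.59 over the other settings. The part of these markers in the differences above was not tested.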

How the data were processed

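Total RNA was hybridised to 1-colour (Cy3) arrays read with Agilent Feature Extraction 10.5.1.1, per the file headers. The deposited intensities, in scanner units, are background-subtracted processed signals; the authors' series table holds log2 values that correlate at r = 1 with them and share an upper quartile of 8.79, and column medians of 4.23 to 5.24; its centring is otherwise not stated. Control and outlier spots were left out (1639 controls an array; 0 saturated), spots of a probe were averaged, and each array's 75th percentile was subtracted from log2 signals. Of 41174 probes 26845 were detected, and the brightest was kept for each of 17650 genes, 14235 of them with a symbol in the reference table. limma 3.58.1 (R 4.3.3) was fitted to all 16 arrays with 8 group means and replicate number as a block (7 residual and 2.6 prior degrees of freedom) and tested on simulated data; p-values are two-sided. Same-numbered arrays deviated together (r from 0.40 to 0.839 over 28 pairs of groups; 0.674 at 12 h), and each number is 1 scan session per the file headers. Without the block, 2 genes were called and 167, not 651, had an unadjusted p below 0.05. Named genes were the 15 largest each way, same sign in both pairs, called or else with unadjusted p below 0.01. Added to these were the 8 smallest p-values of the contrast of times and a preset list of cytokine, target and neighbour genes. Other genes, among them Aurkb, Pdgfrb, Ccl24, Ccl17, Map3k10 and Mrpl27, fell outside these rules and were named with their values known. Members and lists were chosen with earlier results of these data known, and the lists were given counts and medians but no test. Some single genes of the lists are not reported here.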

Additional observations from a re-analysis of the deposited data

Results flagged for a closer look

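The difference in Sod3 at 12 h minus the mean of its differences at 0, 6 and 24 h was 3.41 ± 0.29 (limma adjusted p = 0.00779). KO was above WT in both pairs at 12 h, while at 6 h the difference was -1.42. WT was well above background on neither 12 h array, and with low signals raised to the floor the contrast was 0.73 (limma adjusted p = 1), so the size of the contrast is no measure of a change with time.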

How the results depend on the processing

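The count of genes called at 12 h (3) was 0 with the 4 arrays of 12 h alone, 1 with probes well above background on all 4 arrays, and 1 with either of 2 alternatives chosen after seeing the data, a floor at the lowest well measured signal or normexp without spots of bright local background. Leaving out single 12 h arrays gave 1 to 7; the 7 came without WT replicate 2, and the 1 without KO replicate 2. A lone array in an arm is then assumed to vary like the other groups. With no replicate block, against the pairing by session, the count was 2 (Mrpl39 and Sod3), and the contrast of times kept a count of 1. That contrast gave 2 with no filter, 0 with the filter on all 4 arrays, with slide as a block, with the floor and with normexp, and 0 to 6 with single arrays left out. Mrpl39 stayed called except with the 4 arrays alone (limma adjusted p = 0.541). Sod3 was not called with slide as a block (0.443), with trend and robust estimation (0.315), with normexp (0.14 log2 units, adjusted p = 1) or without KO replicate 2 (0.107), nor Rptoros with normexp (1.05 log2 units, adjusted p = 1).

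With slide as a block the sign turned for Tnf (-1.09), Ifnb1 (1.01), Nos2 (0.82), Socs1 (0.33), Bach1 (0.22) and Msh6 (-0.23). It also turned when single arrays were left out, for Il6 (range -0.16 to 1.58), Il1b (-0.04 to 1.88), Arg1 (-2.10 to 1.96) and Bach1 (-0.69 to 0.10). None of these is called in any setting, and the cause was not tested. The planned normexp correction of all spots was not usable: on KO and WT replicate 1 of 12 h a few spots had local backgrounds up to 722600 and 362000 scanner units, and the corrected log2 signals ran from 11.68 at the 5th percentile to 11.72 at the 75th, and from 11.56 to 11.62.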

Other observations

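Hrh2, the histamine H2 receptor, had the largest fitted difference of any gene, -6.51, and it rests on 1 spot. Chosen after its values were seen, its spot mean was 241300 scanner units on WT replicate 1, against 59.3, 106.3 and 119.9 on the other 3 arrays of 12 h. The same array held 5 spots with a local background above 1000 units, and KO replicate 1 held 4. On WT replicate 1 the local background of the Hrh2 spot itself was 34 units, below that limit. Why the spot was so bright was not tested.

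Icosl, the ligand of the T cell costimulator ICOS, differed by 1.28 ± 0.22 (limma unadjusted p = 0.000228, adjusted p = 0.31), the widest difference among 30 antigen presentation genes, and was likewise chosen after its values were seen.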
